A study of Mus musculus with 34 samples.

Results

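The genes described here encode matrix metalloproteinases, zinc enzymes that cut collagen, elastin and other proteins outside the cell, and the tissue inhibitors that block them. They were found by symbol in the deposited count tables: Mmp2, Mmp8, Mmp9, Mmp12, Mmp13, Mmp14, Mmp19, Timp1, Timp2 and Timp3. These are 10 of 52550 genes in the main table and 10 of 25498 in the table of batch 1, a separate set of libraries. All 10 had enough counts to be tested in both tables.

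The RNA came from bone marrow-derived macrophages, cells grown from the marrow of mice aged 10 to 14 weeks over 6 days with M-CSF at 10 ng/ml. After a rest of 24 h the cultures received low-density lipoprotein (LDL, the cholesterol-carrying particle of plasma) at 200 mg/dL or vehicle for 24 h. All mice carried Vav-Cre, a recombinase driven in blood-forming cells and their progeny. WT mice carried Vav-Cre alone, Dnmt3aKO mice also floxed alleles of Dnmt3a (Dnmt3afl/fl), a DNA methyltransferase, Tet2KO mice floxed alleles of Tet2 (Tet2fl/fl), an enzyme that oxidises methylated cytosine, and Jak2VF mice 1 allele with the activating change V617F in Jak2 (Jak2V617F/WT), a kinase of cytokine receptors. The main set had 3 libraries for each of 8 groups of genotype and treatment. Batch 1 had WT and Tet2KO only, with 3 vehicle and 2 LDL libraries each. Nothing in the labels ties the libraries within a group to different mice, and the p-values therefore measure the spread between these libraries, which may be technical.

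A library held between 24105237 and 43904761 counts in the main set. In batch 1 the totals were 15171143 to 44449473. Dnmt3a was lower in Dnmt3aKO than in WT, with a log2 fold change of -0.91 with vehicle. Tet2 was not called lower in Tet2KO in any comparison (0.38 with vehicle, adjusted p = 0.568, edgeR), so that label is unchecked. Gene counts do not test an activating Jak2 allele. The summed level of 8 macrophage markers was 19100 to 33400 CPM (counts scaled to a common library total) in the main set. Markers of other cells were present too. A sum of 10 stromal markers, among them collagen genes, was 11500 to 22900 CPM in every main library and 706 to 5360 CPM in batch 1. A sum of 11 neutrophil markers ran from 61.2 to 740 CPM in the main set. Of these 11, Ly6g was near 0 in WT with vehicle, at a mean of 0.0811 CPM. The sum there was 201 to 259 CPM, so other markers of the list made it up.

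Matrix metalloproteinases are made as inactive proenzymes, and opening of the propeptide frees a catalytic zinc. Each active enzyme can be bound by a tissue inhibitor. In atherosclerotic plaques, macrophages are a known source of both, and breakdown of collagen thins the plaque's cap. Many promoters of the family are known to hold binding sites for AP-1, a factor made of Fos and Jun proteins.

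Stretches of promoter are shown for members that moved with LDL or genotype in the sections that follow: a pair that hold the AP-1 site TGANTCA, and for contrast a collagenase and an inhibitor that do not. The table of RefSeq promoters (GRCm38.p6) held 8 windows for 7 members, and none was matched for Mmp2, Mmp9 and Mmp19. TGANTCA, which reads the same on both strands apart from its middle base, was searched on both strands in the 250 bases before each start. It was found in 2 members, Mmp12 and Mmp13, and in 2217 of all 32851 windows (6.75%). Capitals mark the match.
Mmp13, plus strand, chr9:7272394-7272513: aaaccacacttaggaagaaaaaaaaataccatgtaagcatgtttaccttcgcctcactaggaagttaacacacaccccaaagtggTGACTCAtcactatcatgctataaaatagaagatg
Mmp12, second start, plus strand, chr9:7347254-7347373: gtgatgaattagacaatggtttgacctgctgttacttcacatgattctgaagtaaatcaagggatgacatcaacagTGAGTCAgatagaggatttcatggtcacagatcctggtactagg
Mmp8, plus strand, chr9:7558309-7558428: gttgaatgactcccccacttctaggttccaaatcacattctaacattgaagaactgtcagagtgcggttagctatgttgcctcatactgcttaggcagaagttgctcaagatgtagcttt
Timp1, plus strand, chrX:20870046-20870165: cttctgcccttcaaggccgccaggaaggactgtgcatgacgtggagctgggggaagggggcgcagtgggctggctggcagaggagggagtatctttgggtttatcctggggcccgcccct
Each stretch is the 120 bases before the start. The match lay 35 bases before the start of Mmp13 and 44 bases before the second start of Mmp12, while the first start of Mmp12 held none. The 3 collagenase and elastase promoters were poor in CpG, the dinucleotide that DNA methylation acts on: the 250 bases held 1 CpG for Mmp13, 0 and 2 for the windows of Mmp12 and 4 for Mmp8. The inhibitors had more, with 6 for Timp1, 18 for Timp3 and 21 for Timp2, and Mmp14 had 10. Presence or absence of these letters is a description of the window and says nothing of binding.

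The gene bodies of Mmp13 (chr9:7272514-7283331), Mmp12 (chr9:7344381-7369499) and Mmp8 (chr9:7558456-7568485) lie close together on the plus strand of chromosome 9 (GRCm38, GENCODE M21), in the known cluster of secreted metalloproteinase genes. Mmp2 is on chromosome 8 (92827291 to 92853420), Mmp9 on chromosome 2 (164940780 to 164955850), Mmp14 on chromosome 14 (54431612 to 54445364) and Mmp19 on chromosome 10 (128790910 to 128800824). Timp1 lies on the X chromosome (20870166 to 20874735) within an intron of Syn1, with no exon bases shared, and Timp2 on chromosome 11 (118301069 to 118355740, minus strand). Mmp19 shares 789 exon bases with Tmem198b on the opposite strand, which had 261 to 532 counts in the main libraries. Timp3 (chromosome 10, 86300372 to 86349506) shares 1733 exon bases with Syn3, at 7 to 31 counts. Whether counting used strand is not given in the sources used here, so reads in those shared bases cannot be told apart.

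Scaled per kilobase of exon, Timp1 had the highest and Mmp9 the lowest mean of the 10 members in each of the 8 groups of the main set. The order of the others changed with the group. The median over the 24 libraries was 778.5 CPM per kb for Timp1, 103.1 for Timp2 and 67.9 for Timp3. Among the enzymes it was 60.9 for Mmp2, known as gelatinase A, and 59.7 for Mmp14, the membrane-anchored enzyme that activates pro-MMP-2 together with TIMP-2. It was 57.4 for Mmp13, 50.5 for Mmp8 and 42.4 for Mmp12. It was 28.3 for Mmp19 and 14.3 for Mmp9. In WT with vehicle the mean was 50.1 for Timp3, 58.8 for Mmp2, 20.7 for Mmp19, 19.6 for Mmp12 and 15.4 for Mmp8. In Dnmt3aKO with LDL, Mmp13 (175.3), Mmp8 (172.6) and Mmp12 (120) stood above Timp2 (85.6) and Timp3 (71.2). Levels of Mmp8 spread 11.9-fold between the lowest and highest library and those of Mmp2 only 1.53-fold.

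**Figure D1:**
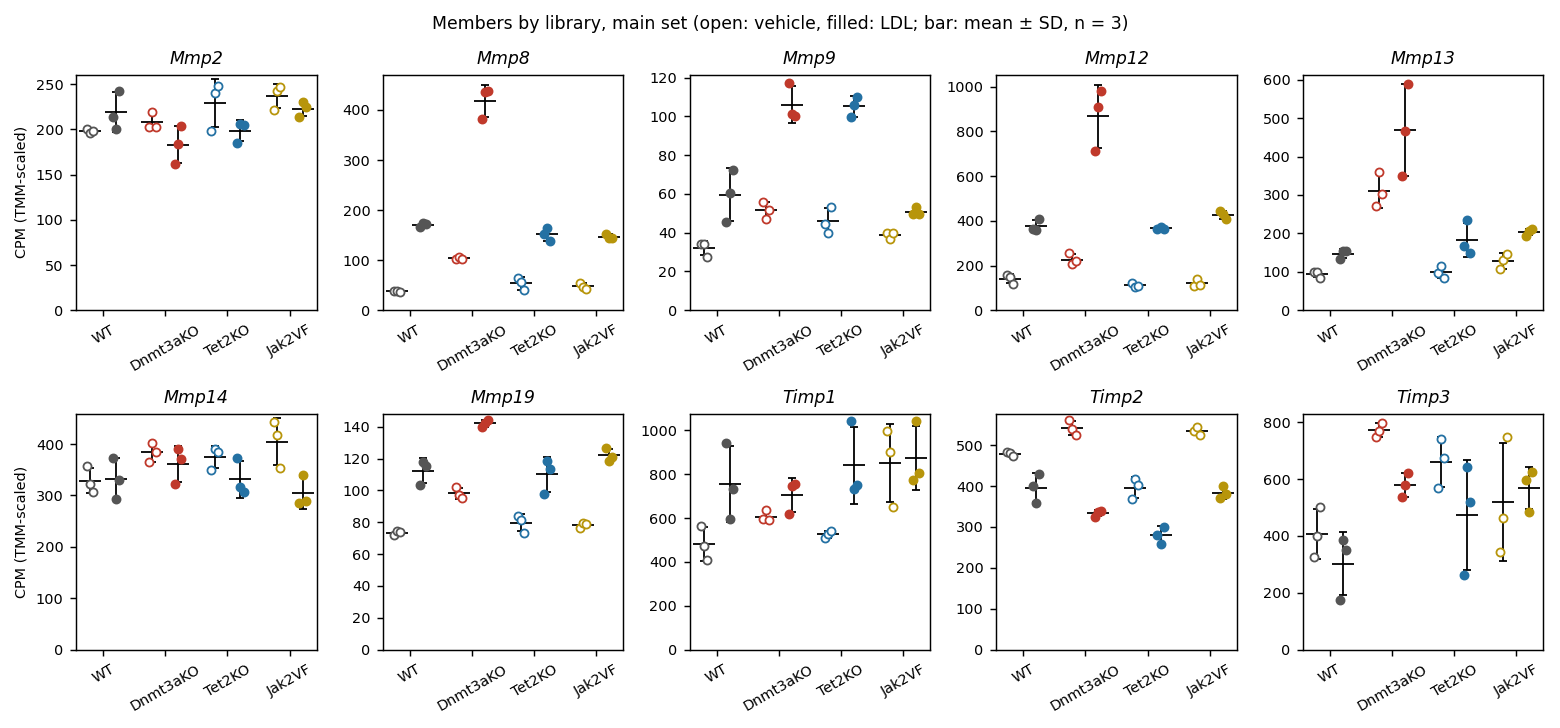
Level of each of the 10 genes in the 24 libraries of the main set (y axis, CPM after TMM scaling, from 0), by genotype; open points are vehicle, filled points LDL, and bars give mean ± SD of 3 libraries. Mmp8, Mmp12 and Mmp13 are highest in Dnmt3aKO with LDL, where Mmp8 lies between 382.1 and 438.1 CPM.

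The first question was what LDL does to these genes in each genotype. In WT, 6 of 10 members were higher with LDL (Mmp8, Mmp9, Mmp12, Mmp13, Mmp19 and Timp1) and 1 was lower (Timp2), where 14.2% of all 19444 genes tested were called in either direction, 6.67% higher and 7.58% lower. The median log2 fold change was 0.62 over the members and 0 over all genes tested. The members were chosen with earlier results of these data known. They also had at least 1007 counts in every main library, while genes with far fewer were tested too. The shares and medians of all genes, here and below, are therefore a description and not a test of the family. A call means an adjusted p under 0.05 (edgeR quasi-likelihood test, Benjamini-Hochberg over all genes tested), and fold changes are given as log2 ± standard error (SE). In Dnmt3aKO 5 were higher and 1 lower, where 15.4% of all genes were called, 6.41% higher and 8.96% lower. In Tet2KO 6 were higher and 1 lower, beside 16.8% of all genes, 8.59% higher and 8.21% lower. In Jak2VF 5 were higher and 2 lower, beside 18.2%, 8.44% higher and 9.72% lower. The member medians were 0.38, 0.57 and 0.26, beside -0.02, 0 and -0.02 over all genes. Mmp8, Mmp9, Mmp12, Mmp13 and Mmp19 rose and Timp2 fell in all 4 genotypes.

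Mmp8, the collagenase best known from neutrophil granules, had the largest LDL change of the 10 members in WT. Its libraries were at 37.7, 38 and 36.7 CPM with vehicle and at 165.6, 173.4 and 172.2 with LDL, a log2 fold change of 2.19 ± 0.13 (adjusted p = 9.89e-11, edgeR). In Dnmt3aKO it went from 102.3, 106.1 and 101.6 to 382.1, 435.5 and 438.1 CPM (2.02 ± 0.12). The groups were far apart in both genotypes, and the vehicle libraries of Dnmt3aKO lay between the WT groups. In Tet2KO the rise was 1.504 ± 0.122, from 64.9, 55.7 and 40.1 to 152.1, 165 and 138.7 CPM. In Jak2VF it was 1.61 ± 0.12, from 54.5, 47.2 and 42.7 to 152.5, 143.3 and 145.1 CPM. In bulk RNA a change in the number of cells of one type and a change in RNA per cell cannot be told apart. Of 11 neutrophil markers, 5 were lower, 0 higher and 6 not called with LDL in WT. In Dnmt3aKO 8 were lower, 0 higher and 3 not called. These counts were 5, 1 and 5 in Tet2KO, and 9, 0 and 2 in Jak2VF. The part of neutrophils in the level of Mmp8 was not tested.

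**Figure D2:**
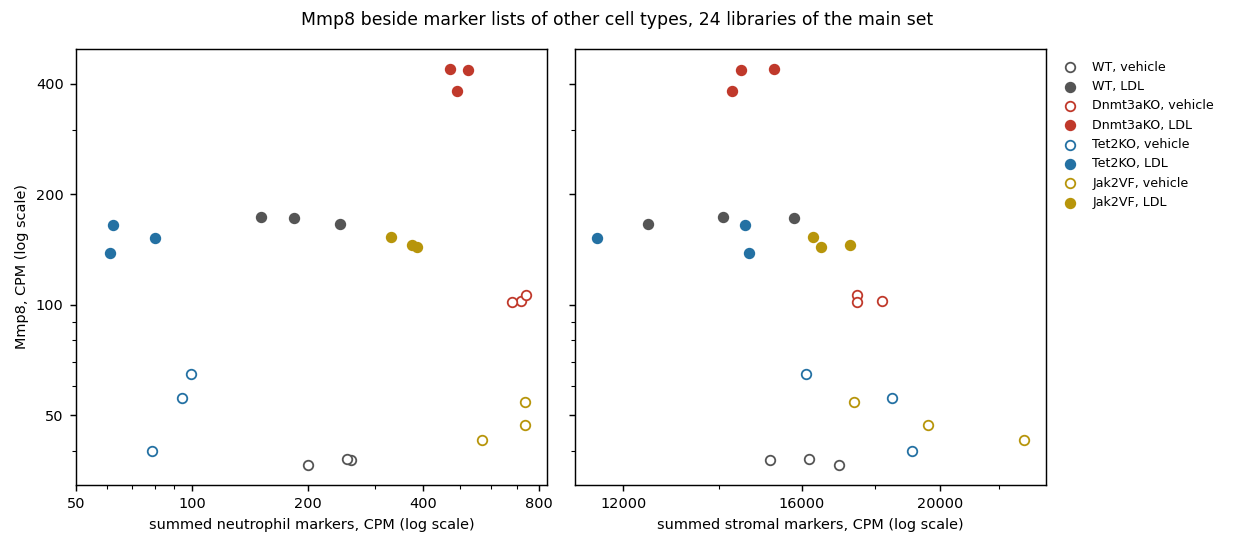
Mmp8 (y axis, CPM, log scale) against the summed neutrophil markers (left) and stromal markers (right; x axes, CPM, log scale) in each of the 24 main libraries; open points are vehicle, filled points LDL. Each LDL group has more Mmp8 than its vehicle group at lower median neutrophil and stromal sums, and Jak2VF with vehicle has neutrophil sums of 569 to 735 CPM with Mmp8 at 42.7 to 54.5 CPM. The part of either cell type in the level of Mmp8 was not tested.

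Mmp12, the macrophage elastase, rose in the 4 genotypes. WT libraries went from 159.4, 148.4 and 117.3 CPM to 364.8, 360.3 and 409.6 (1.42 ± 0.13). Dnmt3aKO libraries went from 254, 207 and 218.6 to 710.5, 910.8 and 983.2 CPM (1.94 ± 0.13). Every LDL library lay above every vehicle library, those of other genotypes included. The rise was 1.72 ± 0.13 in Tet2KO, to 362.6, 373.5 and 363 CPM, and 1.82 ± 0.13 in Jak2VF, to 441.8, 428.9 and 408.6 CPM.

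Mmp9 is gelatinase B, which cuts denatured collagen and basement membrane. With LDL it rose by 1.20 ± 0.13 in Tet2KO, from 44.3, 39.9 and 53.3 CPM to 99.6, 106 and 110.1. The rise was 1.04 ± 0.13 in Dnmt3aKO and 0.90 ± 0.13 in WT, where the vehicle libraries were at 34, 34 and 27.7 CPM and the LDL libraries at 45.6, 60.7 and 72.6. In Jak2VF it was smaller, 0.39 ± 0.13, from 39.6, 37 and 39.9 CPM to 49.6, 53.2 and 49.4. No library overlapped between treatments in any genotype. The call in Jak2VF (adjusted p = 0.0454, edgeR) was lost whichever of the 6 libraries was left out, with adjusted p between 0.0521 and 0.169.

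Mmp13, the main collagenase of rodent matrix turnover, rose by 0.63 ± 0.18 in WT, 0.59 ± 0.17 in Dnmt3aKO, 0.89 ± 0.18 in Tet2KO and 0.67 ± 0.18 in Jak2VF. In Dnmt3aKO the ranges overlapped, with 270.4, 358.7 and 302.1 CPM on vehicle and 350.3, 467.1 and 588.2 on LDL. In the other genotypes every LDL library was above every vehicle library. The WT call was lost without WT vehicle replicate 3 (adjusted p = 0.0968, edgeR) or WT LDL replicate 3 (0.0611). The Dnmt3aKO call was lost without vehicle replicate 1 (0.102), vehicle replicate 3 (0.0744) or LDL replicate 3 (0.163), and the Jak2VF call without vehicle replicate 1 (0.0724). Mmp19, a less studied secreted enzyme, had tight values and rose by 0.47 to 0.64 in the 4 genotypes, for example from 71.7, 74.3 and 73.8 CPM to 103.7, 118 and 115.6 in WT.

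Timp2 fell in each genotype while the enzymes above rose. It fell most in Dnmt3aKO, by 0.70 on the log2 scale (SE 0.07), from 561.7, 539.6 and 526.2 CPM to 325.1, 336.5 and 338.6. It fell by 0.50 in Tet2KO, from 368.5, 417.4 and 402.4 CPM to 279.6, 257.7 and 301.1, and by 0.48 in Jak2VF. In WT it fell by 0.27 (SE 0.07), from 484.3, 481.2 and 472.6 CPM to 400.8, 357.8 and 430.2, and without WT LDL replicate 2 that call was lost (adjusted p = 0.0591, edgeR), as it was in a fit of the WT libraries alone (0.204) or without the filter on low counts (0.0856). The treatments did not overlap in any genotype.

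Timp1, which also binds the proenzyme of MMP-9, rose in WT (0.65 ± 0.18) and Tet2KO (0.68 ± 0.18). The WT libraries were at 562.8, 471 and 410.9 CPM with vehicle and 940.7, 595.5 and 731.1 with LDL. The spread within the LDL group is wide, and leaving out WT LDL replicate 1 (adjusted p = 0.107, edgeR), WT vehicle replicate 2 (0.0506) or WT vehicle replicate 3 (0.0912) ended the WT call; in Tet2KO leaving out LDL replicate 1 did (0.0809). A fit of the WT libraries alone also ended the WT call (0.0749). The log2 fold change was 0.22 ± 0.17 in Dnmt3aKO and 0.04 ± 0.17 in Jak2VF, neither called. A fit of the Dnmt3aKO libraries alone called both Timp1 (0.23 ± 0.08, adjusted p = 0.035, edgeR) and Timp3 (-0.40 ± 0.06, 0.00054) there. Mmp14 was called only in Jak2VF, lower by LDL with a log2 fold change of -0.41 ± 0.11 (adjusted p = 0.0123, edgeR), from 442.3, 417.9 and 354.3 CPM to 286.1, 340.5 and 288.7. The call was lost without Jak2VF vehicle replicate 1 (0.0595), LDL replicate 1 (0.0706) or LDL replicate 3 (0.0612), and in a fit of the Jak2VF libraries alone (0.054). Mmp2 and Timp3, the matrix-bound inhibitor, were called in no genotype in the fit of all groups, with log2 fold changes between -0.21 and 0.14 for Mmp2 and between -0.48 and 0.13 for Timp3. Beside Mmp2 and Timp3, genes that fibroblasts also express, of 10 stromal markers 0 were lower and 1 higher with LDL in WT, 3 lower and 1 higher in Dnmt3aKO, 4 and 0 in Tet2KO, and 3 and 0 in Jak2VF. Their part in the levels of these genes was not tested.

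**Figure D3:**
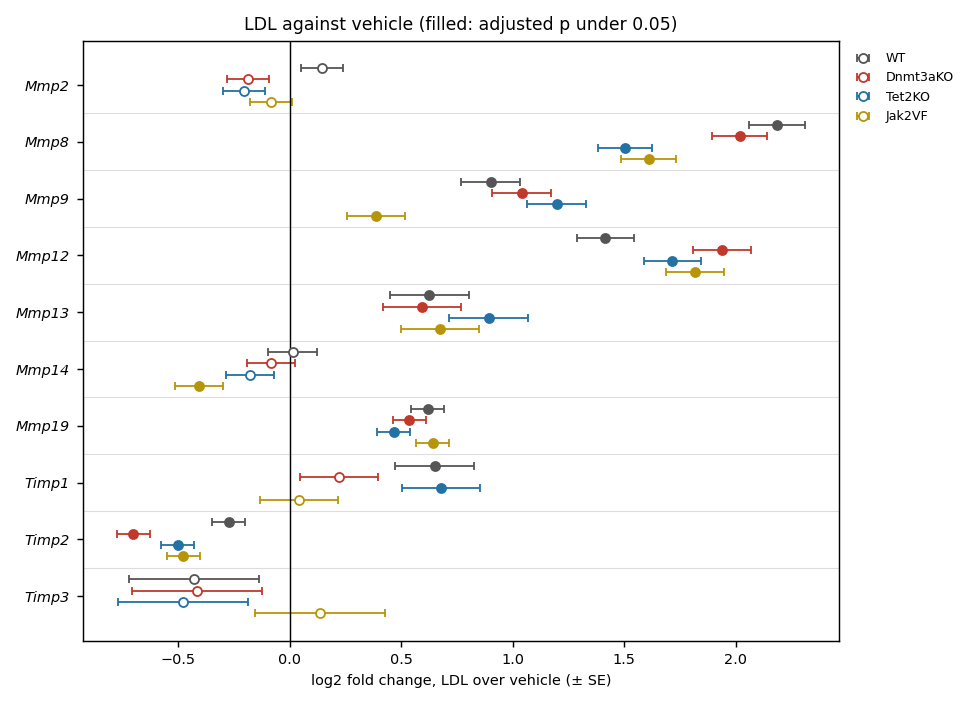
Log2 fold change of each gene with LDL over vehicle (x axis) in each genotype (colours), with bars of ± SE from the edgeR fit of 24 libraries; filled points have an adjusted p under 0.05. Mmp8 and Mmp12 lie furthest to the right and Timp2 lies left of 0 in all 4 genotypes.

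The second question was how each mutant genotype differs from WT. Dnmt3aKO had the most members called of the 3 mutants. With vehicle 6 of 10 members were higher and 0 lower, where 11.1% of all genes were called, 5.58% higher and 5.51% lower. With LDL 6 were higher and 1 lower, where 17.5% were called, 8.01% higher and 9.46% lower. The member medians were 0.55 and 0.59, beside 0 and -0.03 over all genes. Mmp8, Mmp9, Mmp12, Mmp13, Mmp19 and Timp3 were higher in both treatments.

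Mmp13 had the largest difference from WT in both treatments. With vehicle the Dnmt3aKO libraries at 270.4, 358.7 and 302.1 CPM were all above the WT libraries at 100.6, 99.6 and 84.9, a log2 fold change of 1.71 ± 0.18 (adjusted p = 1.04e-06, edgeR). With LDL it was 1.68 ± 0.18, against WT libraries at 132.9, 153.4 and 153.6 CPM. Vehicle-treated Dnmt3aKO cells thus held more Mmp13 than LDL-treated WT cells, with no overlap. In order of group means, Mmp13 was at 468.5 CPM in Dnmt3aKO with LDL and 310.4 with vehicle, then 203.9, 183.8 and 146.6 with LDL in Jak2VF, Tet2KO and WT, and 127.8, 99.1 and 95 with vehicle in the same genotypes; of neighbours in that order, the ranges were apart only between Dnmt3aKO with vehicle and Jak2VF with LDL. Mmp8 was higher by 1.46 ± 0.12 with vehicle and 1.30 ± 0.12 with LDL. Mmp12 was higher by 0.68 ± 0.13 with vehicle and by 1.20 ± 0.13 with LDL. Mmp9 was higher by 0.69 ± 0.13 and 0.83 ± 0.13, and Mmp19 by 0.42 ± 0.07 and 0.34 ± 0.07. Against WT with vehicle, the mean of Dnmt3aKO with LDL was 11.2 times as high for Mmp8, 6.13 times for Mmp12, 4.93 times for Mmp13, 3.33 times for Mmp9 and 1.94 times for Mmp19.

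Of the inhibitors, Timp3 was higher in Dnmt3aKO by 0.92 ± 0.29 with vehicle, at 749, 770.9 and 799 CPM against 325.4, 398.7 and 501 in WT, and by 0.94 ± 0.29 with LDL. Libraries of the genotypes did not overlap, yet leaving out 1 library ended the Timp3 call in 5 of 6 cases in each treatment, all but WT vehicle replicate 3 and all but WT LDL replicate 2 (adjusted p up to 0.184 with vehicle and 0.167 with LDL, edgeR). Timp2 was lower in Dnmt3aKO with LDL (-0.25 ± 0.07, adjusted p = 0.0259, edgeR), a call lost in 5 of 6 such fits, all but the one without WT LDL replicate 2 (up to 0.134), and not called with vehicle (0.18 ± 0.07). Timp1 was called in neither treatment, at 0.33 ± 0.18 with vehicle and -0.10 ± 0.17 with LDL. A fit of the compared libraries alone ended the LDL calls of Mmp19 (adjusted p = 0.0585, edgeR), Timp2 (0.17) and Timp3 (0.0566).

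Neutrophil markers were also higher in Dnmt3aKO, 10 of 11 with vehicle and 10 of 11 with LDL, with a summed level of 682 to 740 CPM against 201 to 259 in WT with vehicle. Their part in the higher Mmp8 and Mmp9 of Dnmt3aKO was not tested. In Jak2VF with vehicle, 9 of 11 of these markers were higher and the sum was 569 to 735 CPM, and Mmp8 was at 42.7 to 54.5 CPM against 36.7 to 38 in WT. That difference was 0.36 ± 0.12 (adjusted p = 0.065 by edgeR and 0.0409 by DESeq2), and without Jak2VF vehicle replicate 3 edgeR called it too (0.0353). Of 6 osteoclast markers, a cell type known for Mmp9 and Mmp14, 2 were higher in Dnmt3aKO with vehicle, Acp5 at 57.2 against 15.4 CPM and Ctsk at 110 against 90.3 CPM. With LDL 2 were higher there too. In Jak2VF 4 of these 6 markers were higher with vehicle and 3 with LDL. In Tet2KO 1 was higher with vehicle and 1 lower with LDL. Their part in the levels of the metalloproteinases was not tested.

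**Figure D4:**
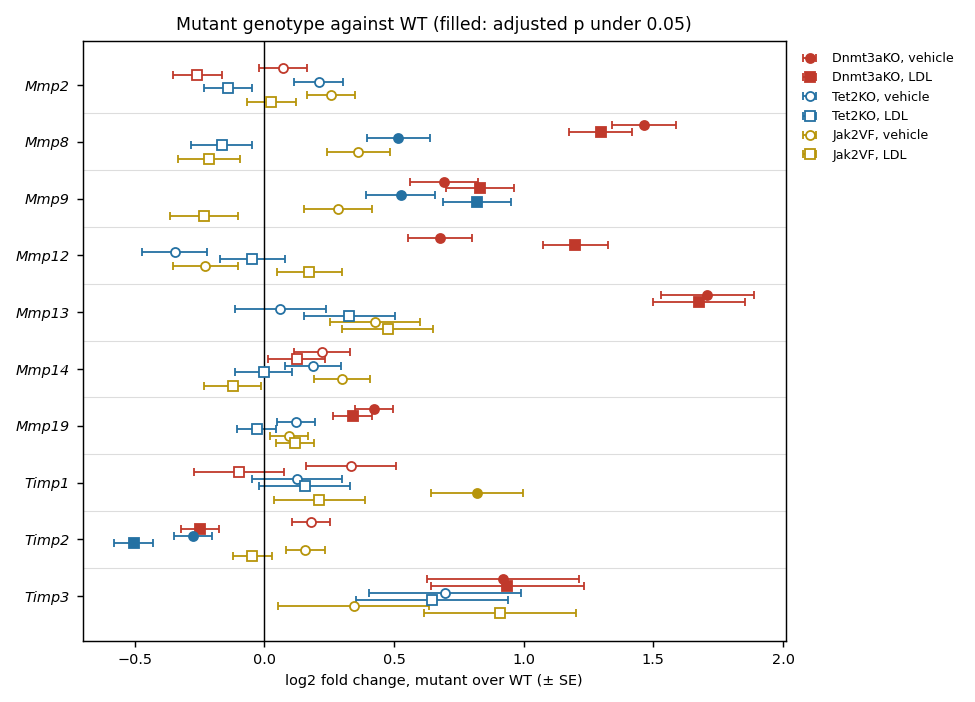
Log2 fold change of each gene in Dnmt3aKO, Tet2KO and Jak2VF over WT (x axis), circles with vehicle and squares with LDL, with bars of ± SE from the edgeR fit; filled symbols have an adjusted p under 0.05. The points of Dnmt3aKO for Mmp8, Mmp12 and Mmp13 lie apart from those of the other genotypes, and Timp2 of Tet2KO lies left of 0.

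In Tet2KO 2 members were higher and 1 lower than in WT with vehicle, where 5.47% of all genes were called, 2.76% higher and 2.72% lower. With LDL 1 was higher and 1 lower, where 2.76% were called, 1.28% higher and 1.48% lower. The member medians were 0.16 and -0.02, beside -0.01 and 0 over all genes. Mmp9 was higher and Timp2 lower in both treatments. Mmp9 was at 44.3, 39.9 and 53.3 CPM against 34, 34 and 27.7 with vehicle (0.525 ± 0.132, adjusted p = 0.0195, edgeR), and at 99.6, 106 and 110.1 against 45.6, 60.7 and 72.6 with LDL (0.82 ± 0.13, 0.000649). Timp2 was lower by 0.28 with vehicle (SE 0.07, adjusted p = 0.0294) and by 0.50 with LDL (SE 0.07, 0.000253, log2, edgeR). The genotypes did not overlap for either gene. Mmp8 was called higher with vehicle only (0.52 ± 0.12, adjusted p = 0.0118, edgeR), at 64.9, 55.7 and 40.1 CPM against 36.7 to 38 in WT. The spread among the Tet2KO libraries was wide. A fit of the compared libraries alone ended the LDL calls of Mmp9 (adjusted p = 0.19, edgeR) and Timp2 (0.214) and the vehicle calls of Mmp8 (0.0724) and Timp2 (0.0751). It called Timp3 higher with vehicle (0.71 ± 0.15, 0.0282), at 567.5 to 742.6 CPM against 325.4 to 501 in WT. Timp3 was not called in the fit of all groups. Without the filter on low counts it was called with vehicle (0.67 ± 0.16, 0.00721) and LDL (0.65 ± 0.16, 0.0148). Of 11 neutrophil markers, 7 were lower in Tet2KO than in WT and 2 higher with vehicle, and 7 were lower and 0 higher with LDL. With vehicle, leaving out Tet2KO replicate 3 (0.127) or WT replicate 3 (0.112) ended the call of Mmp9. Leaving out Tet2KO replicate 1 (0.113) or 2 (0.0574) or WT replicate 3 (0.0505) ended that of Mmp8, and every such fit but the one without Tet2KO replicate 2 ended that of Timp2 (5 of 6, up to 0.168).

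In Jak2VF 1 member was higher than in WT with vehicle, where 9.55% of all genes were called, 4.29% higher and 5.26% lower. At an unadjusted p under 0.05 there were 7 of 10 members with vehicle, and DESeq2 called 2, Mmp8 and Timp1. Shares of all genes at an unadjusted p or by DESeq2 are not given here. Such counts therefore do not set the members apart from other genes. The member medians were 0.29 with vehicle and 0.07 with LDL, beside 0 and -0.01 over all genes. With LDL 0 were called by edgeR, where 9.97% of all genes were. The member called by edgeR with vehicle was Timp1, at 995.7, 903.7 and 651.4 CPM against 562.8, 471 and 410.9 in WT (0.82 ± 0.18, adjusted p = 0.00445, edgeR), and the call held on leaving out each of the 6 libraries in turn. With LDL its difference was 0.21 ± 0.17. Of the 10 members, 2 had an unadjusted p under 0.05 with LDL, Mmp13 (0.48 ± 0.17, adjusted p = 0.0838, edgeR) and Timp3 (0.91 ± 0.29, 0.0532), and DESeq2 called 1, Timp3 (0.0194). Without the filter on low counts edgeR called both Mmp13 (adjusted p = 0.00982) and Timp3 (3.16e-05). The stromal markers, 4 of 10 of which were higher in Jak2VF with vehicle, were at 17400 to 22900 CPM against 15200 to 17000 in WT. Their part in the level of Timp1 was not tested.

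Whether LDL acted differently in a mutant genotype was tested as an interaction. No member was called by edgeR in any of the 3 interactions, where 0.432% (Dnmt3aKO), 0.103% (Tet2KO) and 2.47% (Jak2VF) of all genes were called. At an unadjusted p under 0.05 there were 3, 3 and 5 members, with no share of all genes given here for that threshold or for DESeq2. DESeq2 called 1 member in each: Timp2 in Dnmt3aKO, which fell further there than in WT (-0.41 ± 0.09, adjusted p = 0.00213), and Mmp8, which rose less than in WT in Tet2KO (-0.68 ± 0.18, 0.0227) and Jak2VF (-0.57 ± 0.18, 0.024). The edgeR values were -0.43 ± 0.10 (adjusted p = 0.0718), -0.68 ± 0.17 (0.154) and -0.58 ± 0.17 (0.0666). For Mmp12 in Dnmt3aKO the interaction was 0.52 ± 0.18 (adjusted p = 0.193, edgeR). For Mmp9 in Jak2VF it was -0.52 ± 0.19 (0.104). Leaving out WT LDL replicate 2 brought Timp2 in Dnmt3aKO past the threshold (0.0179), leaving out Tet2KO vehicle replicate 3 Mmp8 in Tet2KO (0.0185), and leaving out WT LDL replicate 2 (0.0354) or Jak2VF vehicle replicate 3 (0.0297) Mmp8 in Jak2VF. The same 2 libraries brought Mmp14 (0.0305 and 0.0387) and Timp1 (0.0371 and 0.0407) past it in Jak2VF.

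Batch 1 gives a second look at WT and Tet2KO with fewer libraries, and its table was fitted apart. Levels set across the tables are not on one scale. Mmp12 stood out in batch 1, with WT libraries at 1548, 1630 and 1542 CPM with vehicle and 838.1 and 1108 with LDL. Tet2KO libraries were at 509.7, 403 and 165.3 CPM with vehicle and 428.4 and 242.7 with LDL. Mmp12 was lower in Tet2KO with vehicle (-2.13 ± 0.38, adjusted p = 0.0249, edgeR), the 1 member called where 1.89% of all 15481 genes were called, 0.730% higher and 1.16% lower, and every Tet2KO library lay below every WT library. The call was lost without WT vehicle replicate 1 (0.0873), 2 (0.0986) or 3 (0.0942) or Tet2KO vehicle replicate 2 (0.0756). With LDL the difference was -1.54 ± 0.45 (0.231). In the main set the same difference with vehicle was -0.35 ± 0.13 (0.129), not called, and the effect of LDL on Mmp12 in WT was 1.42 ± 0.13 there and -0.69 ± 0.41 (adjusted p = 1) in batch 1. The difference between the sets was not tested.

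In the same libraries of batch 1 the summed dendritic cell markers were 67 to 120 CPM in WT with vehicle, 28.9 and 51.2 in WT with LDL, and 6.94 to 11.5 in Tet2KO. Of the 5 markers tested, 1 was lower in Tet2KO with vehicle, Itgax, at 5.81 against 92.7 CPM. Itgax thus made up most of the WT sum with vehicle, and the median log2 fold change of the list was 0.01. The osteoclast sum was 308 to 394 CPM in WT and 196 to 221 in Tet2KO, with 3 of 5 markers lower with vehicle. In the main set the dendritic sum was 7.72 to 16.4 CPM. Whether Itgax stands for dendritic cells here, and the part of other cells in the level of Mmp12, was not tested.

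Mmp9 was the 1 member called in batch 1 with LDL, higher in Tet2KO (1.10 ± 0.17, adjusted p = 0.0284, edgeR), where 0.536% of all genes were called, 0.245% higher and 0.291% lower. The Tet2KO libraries were at 29.9 and 31.7 CPM and the WT libraries at 13.7 and 15. They did not overlap, but leaving out WT LDL replicate 1 (0.126) or 2 (0.154) or Tet2KO LDL replicate 1 (0.139) or 2 (0.2) ended the call. Timp2 lay below WT in every Tet2KO library, at 286.1, 319.5 and 326.8 CPM against 373.2, 404.3 and 398.6 with vehicle (-0.33 ± 0.08, adjusted p = 0.084, edgeR) and 250.4 and 264.6 against 361.9 and 346.6 with LDL (-0.46 ± 0.10, 0.0934). DESeq2 called both (0.00274 and 0.000659). Higher Mmp9 with LDL and lower Timp2 in Tet2KO had the direction of the main set. In both sets and treatments the mean of Mmp12 was also lower in Tet2KO, and the means of Mmp13, Timp1 and Timp3 were higher. In the main set none of these was called in the fit of all groups. The libraries of the genotypes overlapped there except for Timp3 with vehicle. Some differences were small, as for Mmp12 with LDL in the main set, at 366.4 CPM in Tet2KO and 378.2 in WT. Without the pair of libraries high in stromal markers, described below, Timp3 with vehicle was lower in batch 1 (-0.31 ± 0.26, not called). Mmp8 and Mmp19 with vehicle, and the means of Mmp2 and Mmp14 with LDL, went the other way than in the main set. Mmp8, called higher in Tet2KO with vehicle in the main set, had differences of -0.53 ± 0.24 with vehicle and -0.81 ± 0.29 with LDL in batch 1, not called. Mmp19 was below WT in every Tet2KO library of batch 1, by -0.67 ± 0.15 (adjusted p = 0.0721 by edgeR and 0.00283 by DESeq2) and -0.76 ± 0.19 (0.146 and 0.0113), beside 0.12 ± 0.07 and -0.03 ± 0.07 in the main set.

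No member was called by edgeR for LDL in batch 1, where 0.00% of all genes were called in either genotype. At an unadjusted p under 0.05 (share of all genes not given here) there was 1 member in WT and 3 in Tet2KO. DESeq2, whose share is not given either, called 1 in each. In WT this was Mmp8, at 133.8, 64 and 78.1 CPM with vehicle and 183.4 and 189.5 with LDL (1.02 ± 0.26, adjusted p = 0.562 by edgeR and 0.0421 by DESeq2). In Tet2KO it was Mmp9, at 14.7, 16.2 and 19.4 CPM with vehicle and 29.9 and 31.7 with LDL (0.88 ± 0.15, 0.143 and 0.000104). The LDL libraries lay above the vehicle libraries in both cases. In the interaction 0 members were called by edgeR (0.00% of all genes), with 1 at an unadjusted p under 0.05, Mmp9 (0.93 ± 0.22), and 0 by DESeq2. For the LDL effect in WT, simulated 2-fold changes were recovered in 56.6% of changed genes for batch 1 and in 90.8% for the main set. Each simulation took both the number of libraries and the spread of its own set. Changes were put only into genes with higher mean counts, so genes with few counts are not covered. Whether this accounts for the absence of LDL calls in batch 1 was not tested.

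Mmp2, Timp1 and Timp3 were high in the same libraries of batch 1. Mmp2 was at 100 and 95.8 CPM in Tet2KO vehicle replicate 3 and Tet2KO LDL replicate 2, and at 13.4 to 21.7 in the other 8 libraries. Timp3 was at 62.2 and 56.6 CPM in that pair and at 11.3 to 21.2 in the others, and Timp1 at 247.1 and 366 CPM and 38.7 to 138.3. The stromal sum of the pair was 5360 and 4930 CPM and that of the others 706 to 1250. Without that pair, a choice made after seeing the data, Mmp12 in Tet2KO with vehicle was still called (-1.78 ± 0.16, adjusted p = 0.00312, edgeR), and Mmp9 with LDL was not (1.05 ± 0.19, adjusted p = 0.0915, edgeR).

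**Figure D5:**
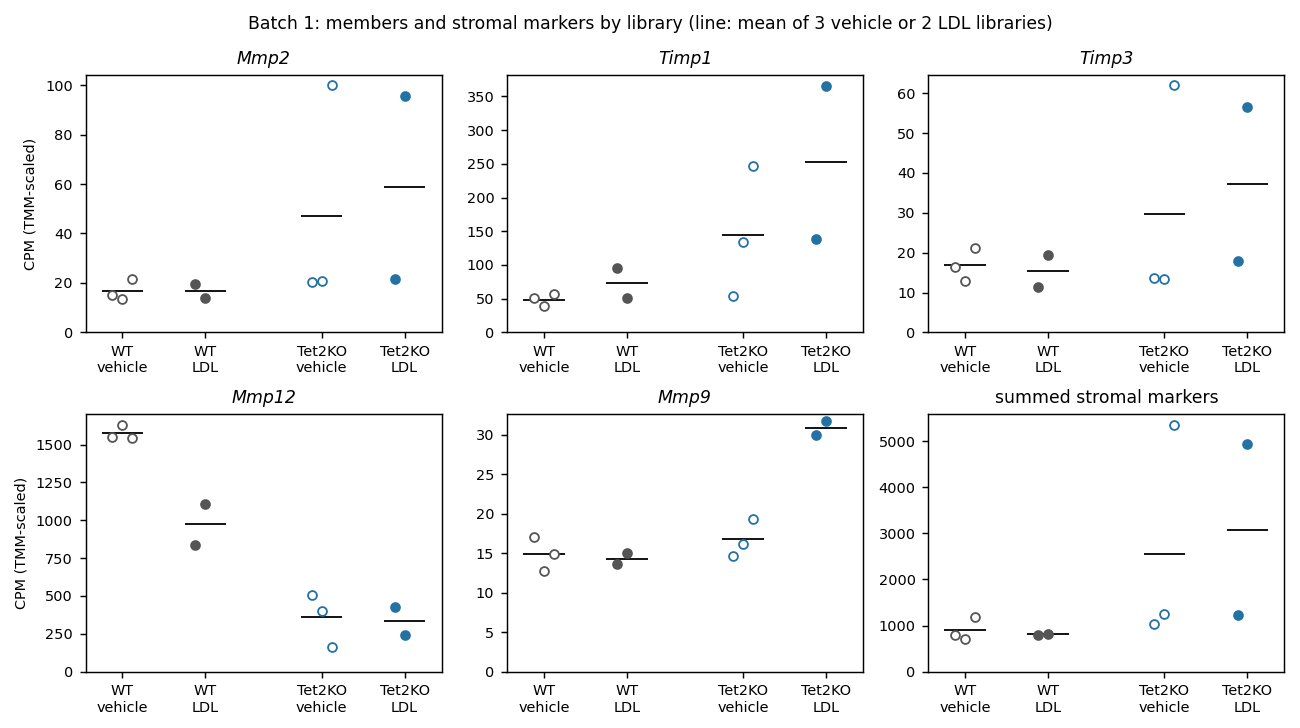
Levels of Mmp2, Timp1, Timp3, Mmp12 and Mmp9 and the summed stromal markers in the 10 libraries of batch 1 (y axes, CPM after TMM scaling, from 0), by genotype and treatment; points are libraries and lines the means of 3 vehicle or 2 LDL libraries. Tet2KO vehicle replicate 3 and Tet2KO LDL replicate 2 stand above the others for Mmp2, Timp3 and the stromal markers, and all 5 Tet2KO libraries lie below the WT libraries for Mmp12.

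Other genes of matrix breakdown were read from lists, whose counts with LDL in WT stand beside 14.2% of all genes called. Of 12 further metalloproteinases and Timp4 tested, 2 were higher and 0 lower with LDL in WT: Mmp3 (stromelysin, which activates other proenzymes), by 1.35 ± 0.17, and Mmp10 (its close relative), by 1.28 ± 0.18. Both rose in all 4 genotypes, and Mmp3 was higher in Dnmt3aKO than in WT by 0.72 ± 0.17 with vehicle and 1.13 ± 0.17 with LDL. Of 18 ADAM and ADAMTS genes 1 was higher and 3 lower, with Adam8 at 0.92 ± 0.09 and Adam33 at -0.51 ± 0.13. Of 15 activators, inhibitors and partners 7 were higher and 0 lower with LDL in WT. The first by adjusted p was Serpinb2, which blocks plasminogen activators and rose by 2.98 ± 0.17 in WT and by 4.57 ± 0.18 in Dnmt3aKO. Its mean with LDL was 180.6 CPM in Dnmt3aKO against 46.2 in WT, and its interaction was called (1.59 ± 0.23, adjusted p = 0.00117, edgeR). Of 6 secreted cathepsins and cystatins 1 was higher, Ctsl, by 0.94 ± 0.11. Of 12 AP-1 and Ets factors 4 were higher and 0 lower, led by Fos (1.70 ± 0.09) and Fosl1 (1.00 ± 0.12). With vehicle Fos was higher than in WT in Dnmt3aKO (0.86 ± 0.09), Tet2KO (0.69 ± 0.09) and Jak2VF (0.47 ± 0.09). Fosl1 was higher in Dnmt3aKO (0.555 ± 0.12) and not called in Tet2KO (-0.007) or Jak2VF (0.033). The part of Fos in the levels of the members was not tested.

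In the mutants the counts stand beside 15.4% of all genes called with LDL in Dnmt3aKO, 16.8% in Tet2KO and 18.2% in Jak2VF. With LDL against vehicle, the further metalloproteinases had 2 higher and 3 lower in Dnmt3aKO, 2 and 2 in Tet2KO and 3 and 2 in Jak2VF, with list medians of -0.15, -0.27 and -0.30. The activators, inhibitors and partners had 6 higher and 0 lower, 7 and 1, and 7 and 1, and the AP-1 and Ets factors 3, 5 and 5 higher with 0 lower in each. Against WT with vehicle, 2 further metalloproteinases were higher and 2 lower in Dnmt3aKO (11.1% of all genes called), 1 and 0 in Tet2KO (5.47%) and 0 and 1 in Jak2VF (9.55%). With LDL these counts were 2 and 4 (17.5%), 0 and 1 (2.76%), and 0 and 2 (9.97%). Of the 12 AP-1 and Ets factors, 2 were higher and 2 lower in Dnmt3aKO with vehicle, and 3 and 1 with LDL. In Tet2KO these counts were 1 and 1 with vehicle and 1 and 0 with LDL. In Jak2VF they were 1 and 2 with vehicle and 0 and 3 with LDL. Fosl1 was among the lower there with LDL (-0.569 ± 0.119, adjusted p = 0.00473, edgeR).

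The genes closest in pattern were taken by Pearson correlation of log2 CPM over the 24 main libraries, which share the treatment and genotype groups, so r describes those groups too. Mmp8 was closest to Clec4e (r = 0.986), Gsr (0.98) and Tnfaip2 (0.978), with r = 0.476, 0.856 and 0.552 over the 10 libraries of batch 1. Mmp9 was closest to C3 (0.932), Zc3h12a (0.929) and Stk40 (0.924), and these stayed high in batch 1 at 0.88, 0.939 and 0.935. Mmp12 was closest to Srxn1 (0.978), Procr (0.974) and Mmp3 (0.967), but in batch 1 its r with Mmp3 was -0.845. Mmp13 was closest to Arrdc4 (0.956), with -0.119 in batch 1, and Stac2 (0.927), with -0.882. Mmp19 was closest to Cd44 (0.97), H6pd (0.966) and Mmp8 (0.966), with r = 0.851, 0.114 and 0.737 in batch 1. Mmp2 was closest to Bgn, the matrix proteoglycan biglycan (0.93, and 0.991 in batch 1, or 0.875 without the pair of high stromal sums). Timp3 was closest to Cpeb1 (0.909), Timp1 to Dgat1 (0.92), Mmp14 to Htra1 (0.898) and Timp2 to Crocc2 (0.934). In batch 1 r was 0.473 for Cpeb1 (0.13 without that pair), 0.705 for Dgat1 and 0.885 for Htra1, with no value for Crocc2.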

How the data were processed

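The authors deposited counts, 1 whole number per gene and library, in a table of 24 libraries and another of 10. Per the submitters' processing notes the build was mm10. Which aligner, counter and annotation they used is not stated in those notes or the labels. The labels name both ribosomal RNA depletion and polyA selection. The file names speak of normalization, yet library totals span 1.82-fold and 2.93-fold, so scaling was done here. Each table was fitted apart with 1 mean per group (edgeR 4.0.16, R 4.3.3, TMM, quasi-likelihood test, two-sided) for the 19444 and 15481 genes that reached 10 counts in 3 or more libraries (2 or more for batch 1). Levels are CPM with TMM scaling, and per kb of merged GENCODE M21 exons. Correlations used a prior count of 2. Alternatives were DESeq2 1.42.0, other scalings, no filter, fits of the compared groups alone, replicate blocks and left-out libraries. Another planned fit left out WT LDL replicate 3 and Tet2KO LDL replicate 3 together, the LDL libraries with Gfap, a gene listed as a brain marker. The fit was tested on simulated data. The intended protein motifs were not searched, because no protein table was used here.

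The members and gene lists were chosen with earlier results of these data known. All members were named; related genes were the 2 with the smallest adjusted p called with LDL in WT per list (1 of these is not reported here), and similar genes the 3 with the highest correlation, of which some are given. Markers of other cell types are given as summed levels. By title number, deviations of same-numbered libraries correlated at 0.54, 0.53 and 0.34 for Tet2KO against WT with LDL. In other comparisons some pairs reached such values, but not every pair, as in Jak2VF against WT with vehicle (0.39, -0.01 and 0.4). Pairing for Tet2KO against WT with LDL comes from the data alone, and the blocked fit called 2 members in that comparison, as without the block.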

Additional observations from a re-analysis of the deposited data

How the results depend on the processing

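Of 2590 values of the 180 member effects under other settings, 2444 stayed on their side of the threshold, 97 lost the call, 49 gained it and 0 values called in either fit changed sign. Fits without scaling between libraries, which take the counts as already normalized, moved the median of all genes, for example to -0.37 for LDL in Dnmt3aKO and 0.62 for LDL in WT of batch 1; size factors left it within 0.02 of 0. Without scaling, members called numbered 3 for LDL in WT, 3 for LDL in Jak2VF, 4 for Dnmt3aKO against WT with LDL, 0 for Tet2KO against WT with vehicle and 0 with LDL, 1 for Jak2VF against WT with LDL, and 4 for batch 1 Tet2KO against WT with vehicle. Without a filter they numbered 2 for Jak2VF against WT with LDL and 2 for its interaction. DESeq2 called 2 and 1 for Jak2VF against WT with vehicle and LDL, 1 in each main interaction, 1 and 1 for LDL in WT and Tet2KO of batch 1, and 3 and 4 for batch 1 Tet2KO against WT with vehicle and LDL. Fits of the compared groups alone called 4 for Dnmt3aKO against WT with LDL, 0 for Tet2KO against WT with LDL and 0 for the same in batch 1, which also had 0 without the pair of libraries high in stromal markers, a choice made after seeing the data. The causes were not tested. The share of all genes called under each of the other settings is not given in this section. These counts alone therefore do not say whether the members changed more than other genes did.

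A replicate block by title number called 2 members for Jak2VF against WT with vehicle and 2 with LDL, and 0 for batch 1 Tet2KO against WT with LDL; by description number the Jak2VF counts were 2 and 1. Outside Tet2KO against WT with LDL the correlations of same-numbered libraries were lower or varied between pairs, and the block moved no other count by over 1.5 times.

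Leaving out 1 library gave 5 to 7 members for LDL in WT, 5 to 6 in Dnmt3aKO, 6 to 8 in Tet2KO and 4 to 6 in Jak2VF. Against WT it gave 5 to 6 and 5 to 8 for Dnmt3aKO, 1 to 2 and 2 to 2 for Tet2KO, and 1 to 3 and 0 to 1 for Jak2VF, with vehicle and LDL. It gave 0 to 1, 0 to 1 and 0 to 3 for the interactions, and in batch 1 0 to 1 with vehicle and 0 to 0 with LDL for Tet2KO against WT and 0 to 0 for the rest. Without both LDL libraries with Gfap, the call of Mmp13 for LDL in WT was lost (adjusted p = 0.0524, edgeR). For Dnmt3aKO against WT with LDL, those of Timp2 (0.111) and Timp3 (0.0646) were lost too.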
